A study of Rattus norvegicus with 12 samples.

Results

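The genes described here are 37 rat genes of the cell cycle and of DNA replication. They were chosen by name and not by their values, though earlier results of these data were known. Each was read from 1 probe set, the group of short probes on the array that targets a transcript. The probe set taken was that with the highest mean signal over the 12 arrays among those that the platform annotation gives to that gene alone. Of the 37 genes 36 had such a probe set, among 14217 genes in all, and Rrm2, a subunit of ribonucleotide reductase, had none. The genes were set in 5 groups by role: 11 replication genes, 14 mitosis genes, 6 G1 cyclins and kinases, 4 CDK inhibitors and 2 atypical cyclins.

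The samples were total RNA of renal cortex from 12 transplanted kidneys of male rats, 1 array each. In 6 the graft was wild type (replicates 1, 4, 6, 7, 8 and 9) and in 6 it was ABCC2-/- (replicates 3, 5, 9, 10, 11 and 14). ABCC2 encodes MRP2, an export pump for conjugated compounds in the apical membrane of proximal tubule cells. All 12 recipients were wild type, so that cells entering a graft from the blood carry the wild-type gene in both groups. Age, strain and time after transplantation are not given in the sources used here, nor whether the kidneys of a group came from different donors, so p-values measure only the spread between these samples. The comparison asks how the gene expression of grafts lacking MRP2 differs from that of wild-type grafts.

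A cell enters the cycle when D-type cyclins with their kinase and cyclin E with Cdk2 phosphorylate the RB family of proteins, which frees E2F transcription factors. E2F then activates genes for the replication machinery: the Mcm helicase subunits, the sliding clamp Pcna and enzymes that make nucleotides. Later in the cycle the mitosis genes, such as cyclin B, Cdk1 and Aurora kinases, are activated together through promoter elements named CHR and CCAAT. CDK inhibitors hold the kinases back. In a resting kidney few tubule cells divide, and after injury surviving tubule cells can re-enter the cycle.

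Promoters of 30 of the 37 genes were found in a RefSeq table on the GRCr8 build, which served only for the sequence at gene starts. The 250 bases before each start were searched on both strands. Letters searched for the E2F element were TTTCCCGC, TTTCGCGC, TTTGCCGC and TTTGGCGC, those for CHR were TTTGAA and TTTAAA, that for the CCAAT box was CCAAT and that for the GC box was GGGCGG. Neighbouring E2F matches can overlap. An E2F element stood in 5 of 9 replication promoters (55.6%) and in 1 of 11 mitosis promoters (9.09%), against 1.81% of 27457 promoters in the table. A CHR element stood in 1 of 9 replication promoters (11.1%) and in 10 of 11 mitosis promoters (90.9%), against 25.3% of the table. Both CHR and CCAAT were in 9 of 11 mitosis promoters (81.8%) and in 0 of 9 replication promoters, against 8.88% of the table. The GC box was in 24 of 30 member promoters (80.0%), against 32.4%. Among the 19005 protein-coding promoters alone these shares were 2.28% for E2F, 23.9% for CHR, 8.82% for CHR with CCAAT and 40.3% for the GC box. For some genes the start used lies within the annotated span of the gene. All of the last 150 bases before it fell inside that span for Mki67, Aurka, Birc5, Ccnd3, Cdkn1b, Cdkn2a and Cdkn2c. In others a part did, such as 142 bases for Mcm7 and 111 for Mcm2. These promoters were kept in the counts. The matches are a description of letters and not of binding.

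The last 150 bases before the start are shown for 2 replication promoters with E2F elements and 4 mitosis promoters with CHR and CCAAT, 5′ to 3′ on the strand of the gene, with E2F, CHR and CCAAT letters in capitals (either strand, so that ATTGG is CCAAT and TTCAAA is CHR on the other strand). They lie at chr19:13488663-13488812 (+) for Mcm5, chr13:42404353-42404502 (-) for Mcm6, chr10:84473094-84473243 (-) for Top2a, chr2:33655226-33655375 (-) for Ccnb1, chr5:137255800-137255949 (-) for Cdc20 and chr1:186147508-186147657 (+) for Plk1, each just before the gene.
Mcm5: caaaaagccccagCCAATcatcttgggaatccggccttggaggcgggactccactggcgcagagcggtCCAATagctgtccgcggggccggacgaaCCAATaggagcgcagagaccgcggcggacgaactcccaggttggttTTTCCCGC
Mcm6: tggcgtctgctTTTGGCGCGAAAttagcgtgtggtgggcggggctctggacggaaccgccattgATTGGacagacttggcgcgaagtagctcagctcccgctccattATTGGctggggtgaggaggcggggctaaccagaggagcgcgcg
Top2a: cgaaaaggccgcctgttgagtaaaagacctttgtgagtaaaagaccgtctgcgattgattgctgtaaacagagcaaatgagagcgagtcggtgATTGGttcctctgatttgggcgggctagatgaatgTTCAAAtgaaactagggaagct
Ccnb1: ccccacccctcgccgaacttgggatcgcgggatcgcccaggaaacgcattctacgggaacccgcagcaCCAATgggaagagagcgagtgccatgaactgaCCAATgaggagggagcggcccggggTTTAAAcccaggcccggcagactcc
Cdc20: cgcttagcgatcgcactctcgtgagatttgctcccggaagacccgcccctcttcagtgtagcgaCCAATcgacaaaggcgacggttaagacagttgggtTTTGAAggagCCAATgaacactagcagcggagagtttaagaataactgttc
Plk1: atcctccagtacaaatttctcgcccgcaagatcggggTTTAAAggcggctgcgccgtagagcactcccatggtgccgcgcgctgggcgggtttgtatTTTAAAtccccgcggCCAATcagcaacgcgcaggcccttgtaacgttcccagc
In Mcm5 the E2F letters end 1 base before the start. In Ccnb1 and Top2a the CHR letters begin 25 and 22 bases before the start, and the nearest CCAAT letters begin 50 and 57 bases before it.

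**Figure D1:**
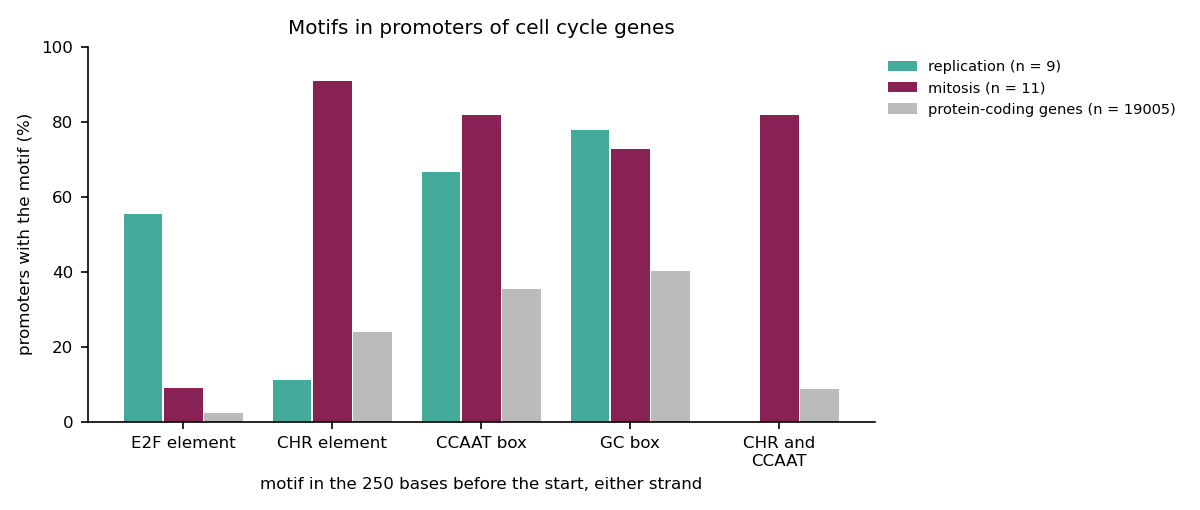
Share of promoters (%) that hold each motif in the 250 bases before the start used, for 9 replication genes, 11 mitosis genes and 19005 protein-coding genes of the table. For some genes that start lies within the annotated span of the gene. E2F letters were in 55.6% of the replication and 9.09% of the mitosis promoters, CHR letters in 11.1% and 90.9%.

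Signals are the array intensities as deposited, and each gene is compared only with itself, since probe sets differ in how brightly they bind. Of the 36 measured genes 34 had a mean signal above the pooled 20th percentile of all values (0.0694), and 32 were above it on all 12 arrays. Under it on average were Bub1b, a spindle checkpoint kinase, on 10 of 12 arrays, and Cdkn2a, an inhibitor of Cdk4, on 9. Values under 0.0694 were raised to it before log2. The test covered 30 of the 36 genes, those at or above the 40th percentile of mean log2 signal (0.173). It left out Ccna2, Aurkb, Bub1b and Plk1 of the mitosis group, Ccne1 of the G1 group and Cdkn2a. The targeted gene went with the labels: Abcc2 signal was 0.899 ± 0.075 (SD, n = 6) in wild-type and 0.141 ± 0.059 (SD, n = 6) in ABCC2-/- grafts, with no overlap.

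None of the 30 tested genes differed between the genotypes past an adjusted p of 0.05 in limma's moderated test with Benjamini-Hochberg adjustment, where 4 of 18625 probe sets (0.0215%) did. The lowest adjusted p among them was 0.625. At an unadjusted limma p under 0.05 the count was also 0 of 30, against 3.35% of all probe sets tested that were higher and 4.63% that were lower in ABCC2-/- grafts. No member separated the genotypes without overlap, against 0.435% of probe sets tested. By direction, 19 of the 30 were higher and 11 lower in ABCC2-/- grafts, with a median log2 difference of 0.12. Of 10638 genes tested 41.4% were higher, with a median of -0.040. The mitosis genes had the highest group median, 0.28 over 14 genes, followed by the replication genes with 0.096 over 10. A lower signal in these bulk samples can come from fewer cells of a type or from less RNA per cell, which cannot be told apart.

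**Figure D2:**
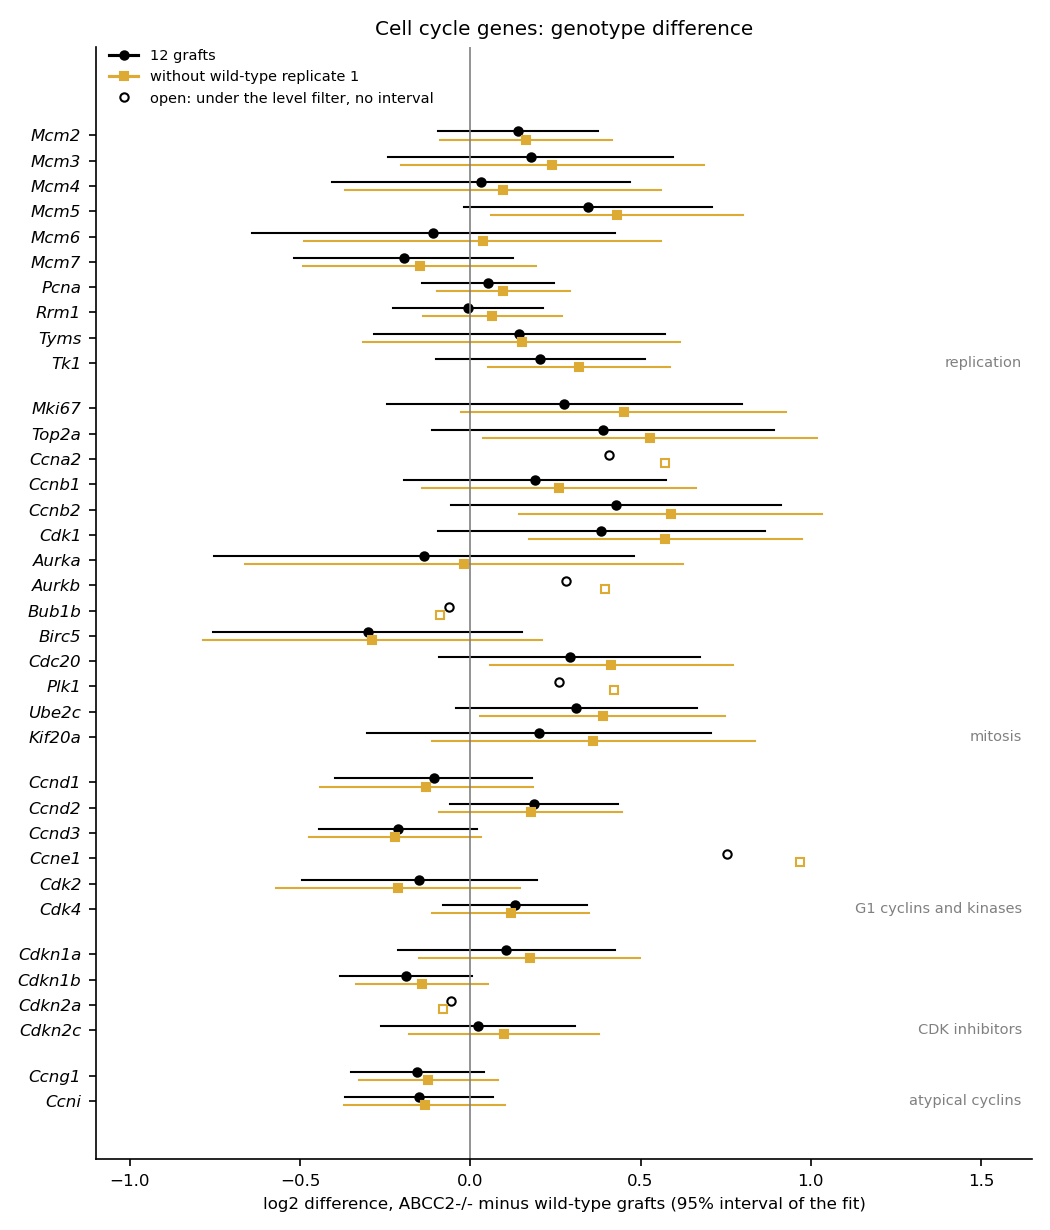
Log2 difference of each measured gene (ABCC2-/- minus wild-type grafts) from the 12 grafts and without wild-type replicate 1, with the 95% interval of the fit for the 30 tested genes and open points for the 6 under the level filter. With 12 grafts every interval includes 0, and without wild-type replicate 1 the intervals of 7 genes lie above 0. That graft was left out because of its own values in these genes, which lowers the wild-type mean and spread by construction. No gene passed the adjusted test in either fit.

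Among the replication genes 7 of 10 were higher in ABCC2-/- grafts and 3 lower, and 0 passed the test. Mcm5, a subunit of the helicase that unwinds DNA at origins, had the largest difference of the group. Its signals in wild-type grafts were 0.224 (lowest), 0.297 (median) and 0.391 (highest), and in ABCC2-/- grafts 0.317, 0.390 and 0.405. All 6 ABCC2-/- grafts were above the wild-type mean, and the groups overlapped. The difference was 0.35 (SE 0.17, limma adjusted p = 0.628), a 1.27-fold higher signal with a 95% interval of -0.018 to 0.71 in log2. Tk1, the thymidine kinase of the salvage pathway, followed with 0.21 (SE 0.14, limma adjusted p = 0.651). Its wild-type signals were 0.513, 0.600 and 0.965 (lowest, median, highest) and its ABCC2-/- signals 0.684, 0.733 and 0.872. The highest Tk1 signal of all 12 was that of wild-type replicate 1, and all 6 ABCC2-/- grafts were above the wild-type mean. A second tested Tk1 probe set gave 0.24 (SE 0.15, limma adjusted p = 0.638).

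The other helicase subunits differed in both directions. Mcm2, Mcm3 and Mcm4 differed by 0.14, 0.18 and 0.030 in log2, Mcm6 by -0.11 and Mcm7 by -0.20, with limma adjusted p of 0.671 or more. Mcm7 signals were 1.23, 1.73 and 1.94 in wild-type and 0.943, 1.53 and 1.77 in ABCC2-/- grafts (lowest, median, highest). ABCC2-/- replicate 3 held the lowest value of both Mcm6 and Mcm7, and without it the differences were 0.046 and -0.073. Pcna, the clamp that tethers DNA polymerase, was at 7.10, 8.30 and 9.69 in wild-type and 7.22, 8.66 and 9.65 in ABCC2-/- grafts. Its difference of 0.051 had a 95% interval of -0.14 to 0.24. Rrm1, the large subunit of ribonucleotide reductase, differed by -0.0071 with an interval of -0.23 to 0.21, the smallest difference of the group. In 5 wild-type grafts Rrm1 lay between 1.52 and 1.57, and in replicate 1 at 2.09. Tyms, which makes thymidylate, differed by 0.14 (SE 0.20, limma adjusted p = 0.800).

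**Figure D3:**
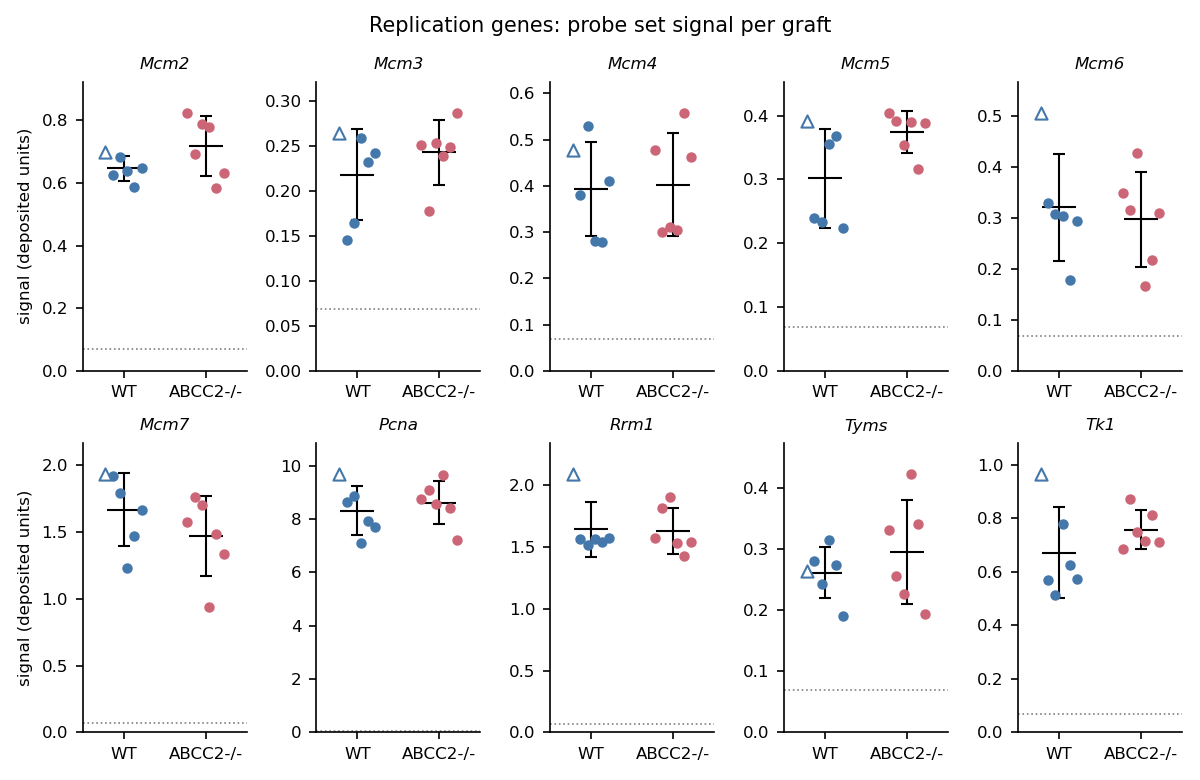
Signal (deposited units) of the 10 measured replication genes in each of 12 grafts, with bars for the mean and SD of 6 grafts, an open triangle for wild-type replicate 1 and a dotted line at 0.0694. For every gene the genotypes overlap, and the triangle is the highest point of all 12 for 5 of the 10 genes.

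Of the 14 mitosis genes 11 were higher and 3 lower in ABCC2-/- grafts, and among the 10 tested 8 were higher and 2 lower, with a median of 0.28. None of the 10 passed the test, with limma adjusted p between 0.628 and 0.869. Ccnb2, a partner of Cdk1 at the start of mitosis, had the largest tested difference of 0.43 (SE 0.23, limma adjusted p = 0.628). Its signals were 0.192, 0.270 and 0.552 in wild-type and 0.350, 0.429 and 0.519 in ABCC2-/- grafts (lowest, median, highest). All 6 ABCC2-/- grafts lay above the wild-type mean, while wild-type replicates 1 and 4 were also high. Cdk1, the kinase that drives entry into mitosis, was at 0.247, 0.346 and 0.681 in wild-type and 0.317, 0.473 and 0.605 in ABCC2-/- grafts. The difference was 0.39 (SE 0.23, limma adjusted p = 0.635), and wild-type replicate 1 held the highest value of all 12. Without that graft the 5 others lay at or under 0.390, and 5 of 6 ABCC2-/- grafts were above all of them.

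Top2a, which untangles replicated DNA, had wild-type signals of 0.159, 0.268 and 0.449 and ABCC2-/- signals of 0.243, 0.362 and 0.515 (lowest, median, highest), a difference of 0.39 (SE 0.24, limma adjusted p = 0.638). The signals of its other tested probe set were 0.143 ± 0.0410 (SD, n = 6) in wild-type and 0.256 ± 0.0615 (SD, n = 6) in ABCC2-/- grafts. That set had the largest tested difference of any probe set of the members, 0.86 (SE 0.23, limma adjusted p = 0.606), and its genotypes overlapped. Mki67, the proliferation antigen of cycling cells, was at 0.233, 0.301 and 0.591 in wild-type and 0.223, 0.412 and 0.563 in ABCC2-/- grafts. Its lowest value of all 12 was in an ABCC2-/- graft, replicate 14, and its highest in wild-type replicate 1. The difference was 0.28 with a 95% interval of -0.25 to 0.80.

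Ube2c and Cdc20 act in the protein destruction that ends mitosis. Ube2c, the ubiquitin carrier of the anaphase-promoting complex, had wild-type signals of 0.272, 0.447 and 0.553 and ABCC2-/- signals of 0.459, 0.497 and 0.671 (lowest, median, highest). All 6 ABCC2-/- grafts were above the wild-type mean, with a difference of 0.31 (SE 0.17, limma adjusted p = 0.628). Cdc20, the activator of that complex, differed by 0.29 (SE 0.18, limma adjusted p = 0.639). A second tested Cdc20 probe set had the opposite sign, -0.040 (SE 0.29, limma adjusted p = 0.969). In the chosen set the difference was -0.10 among the first 3 grafts listed of each genotype and 0.68 among the last 3. Ccnb1 and Kif20a, a cyclin and a motor of the late spindle, differed by 0.19 and 0.20, and a second tested Ccnb1 set by 0.35 (SE 0.32). Kif20a differed by 0.45 among the first 3 listed of each genotype and by -0.044 among the last 3. Lower in ABCC2-/- grafts were Birc5, an inhibitor of cell death that sits on chromosomes at mitosis, and Aurka, the kinase of the spindle poles. Birc5 signals were 0.161, 0.267 and 0.324 in wild-type and 0.154, 0.205 and 0.279 in ABCC2-/- grafts, a difference of -0.30 (SE 0.21, limma adjusted p = 0.654). Among the first 3 listed of each genotype the Birc5 difference was -0.66 and among the last 3 it was 0.054. The Aurka difference of -0.14 rested on ABCC2-/- replicate 14, whose signal was 0.0769, and was 0.12 without it.

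Under the level filter were 4 mitosis genes, of which Ccna2, Aurkb and Plk1 were higher in ABCC2-/- grafts by 0.41, 0.28 and 0.26 and Bub1b differed by -0.062. The exact two-sided permutation test over all assignments of the 12 grafts to 6 and 6, unadjusted, gave p = 0.175 for Ccna2, 0.260 for Aurkb and 0.517 for Plk1. The smallest p this design allows is 0.00216. With values under the 40th percentile raised to it, Ccna2 and Aurkb differed by -0.046 and -0.015, so their direction rested on values near the floor.

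**Figure D4:**
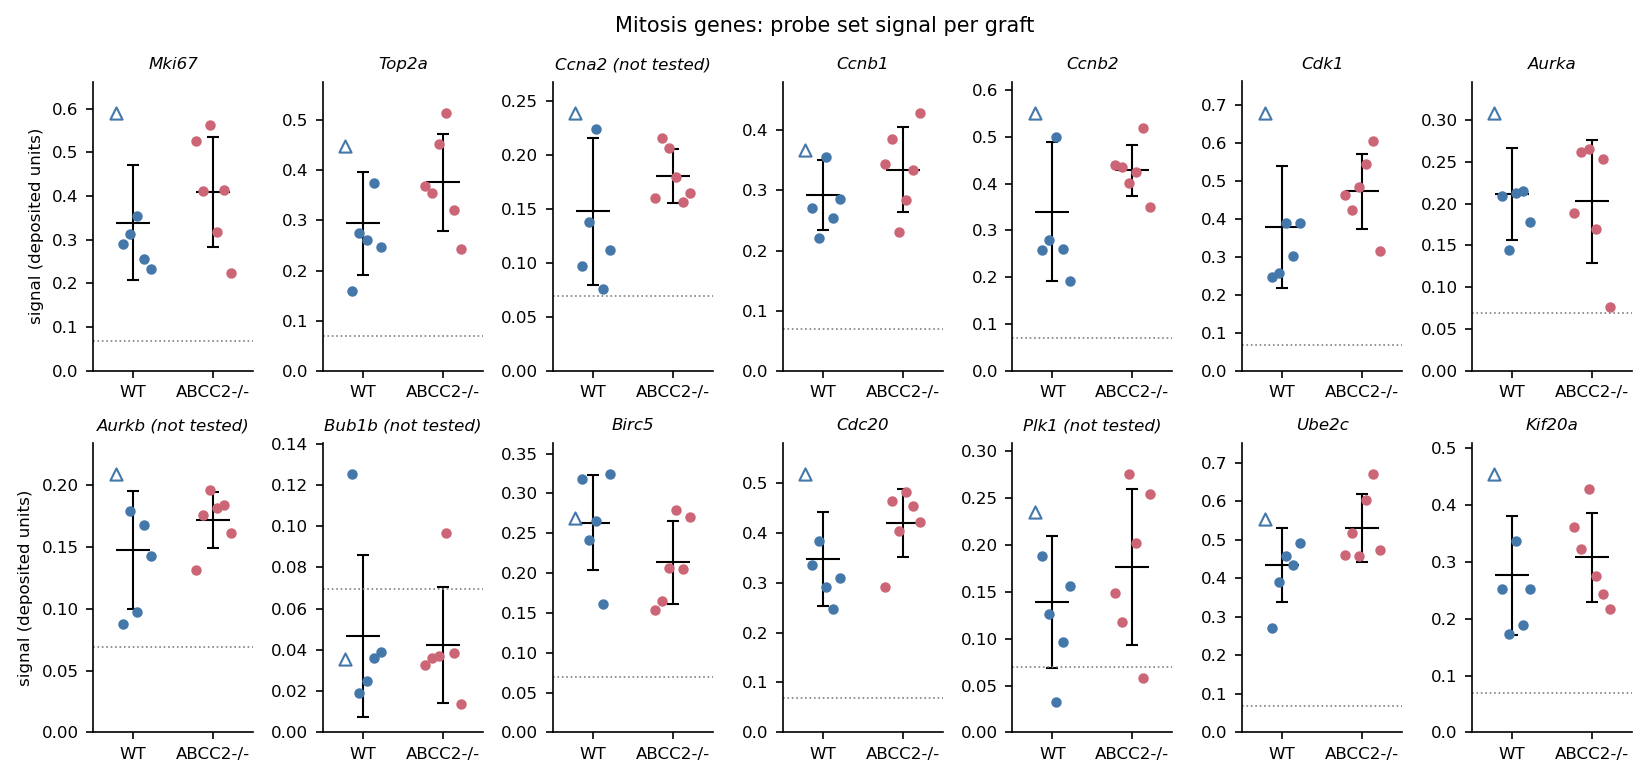
Signal (deposited units) of the 14 mitosis genes in each of 12 grafts, with bars for the mean and SD of 6 grafts, an open triangle for wild-type replicate 1 and a dotted line at 0.0694. The triangle is the highest of all 12 points for 8 of the 14 genes, and no gene separates the genotypes.

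Wild-type replicate 1 stood apart from the other 5 wild-type grafts in these genes. It held the highest of 12 values in 16 of 36 members (44.4%), among them 8 of 14 mitosis and 5 of 10 replication genes, and the lowest in 0. Over 10638 genes tested it was highest in 9.02%. A group score, the mean over its genes of log2 signal minus the gene's mean over 12 arrays, gave 0.48 for mitosis in this graft, against -0.34 to -0.060 in the other 5. The ABCC2-/- scores ran from -0.11 in replicate 14 to 0.26 in replicate 11, and 5 of 6 were above those 5 wild-type grafts. For replication this graft scored 0.29, the other wild-type grafts -0.16 to -0.048 and ABCC2-/- grafts -0.059 to 0.16. Among 43 other mitosis genes it was highest in 10 (23.3%), and among 41 other replication genes in 4 (9.76%). Its summed signal of 11 tubular injury and repair markers was 33.1, the highest of the wild-type grafts (24.6 to 30.8 in the rest). Its sums for proximal tubule (329), myeloid (69.4) and erythrocyte markers (20.9) were the lowest of the wild-type grafts, as were its beta-actin 3′ to 5′ probe ratio (7.06) and Abcc2 (0.787). The part of these measures in the result was not tested.

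Leaving out wild-type replicate 1, the median difference was 0.40 for mitosis and 0.12 for replication genes, with 11 of 14 and 9 of 10 higher. No member passed the test (lowest limma adjusted p = 0.767), where again 0.0215% of all probe sets did. At an unadjusted limma p under 0.05, 7 of 30 members were higher and 0 lower, against 2.83% of probe sets tested that were higher. Of the 18625 probe sets tested 667 were lower at that limma p. The 7 were Cdk1, Ccnb2, Top2a, Cdc20 (chosen set) and Ube2c of the mitosis group and Mcm5 and Tk1 of the replication group. Cdk1 then differed by 0.57 (SE 0.19), Ccnb2 by 0.59 (SE 0.21), and Top2a by 0.53 (SE 0.23), each with an adjusted limma p of 0.767. Mki67 differed by 0.45 (SE 0.22). The graft was left out because of its own values in these genes, which lowers the wild-type mean and its spread by construction. The median coefficient of variation of the mitosis genes was 36.4% in 6 wild-type grafts, 26.2% without replicate 1 and 22.8% in ABCC2-/- grafts.

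**Figure D5:**
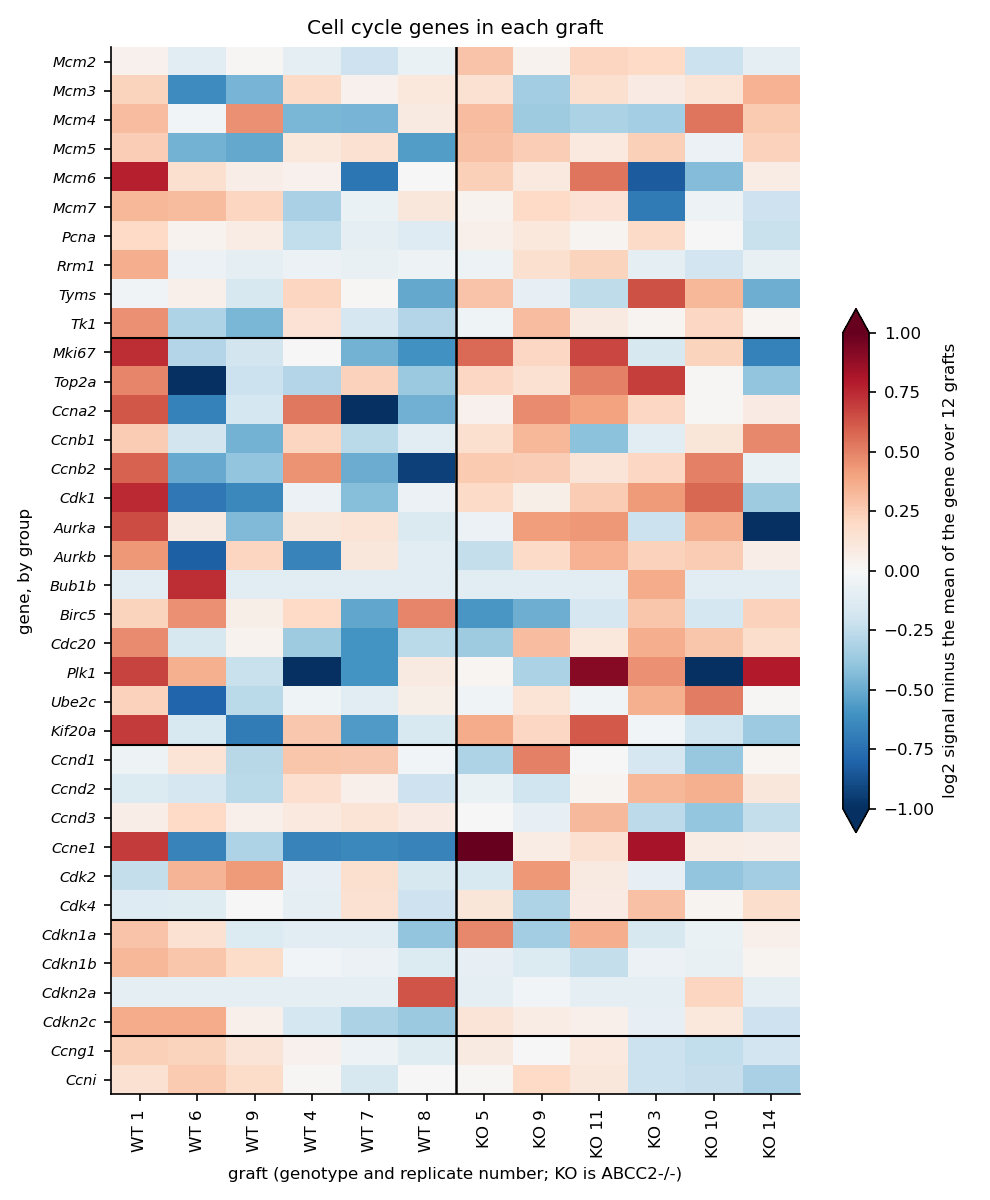
Log2 signal of each measured gene minus its mean over 12 grafts, by graft (columns, wild type left and ABCC2-/- right, in the order listed) and gene (rows, by group; values under 0.0694 raised to it). Wild-type replicate 1 (WT 1) holds the highest value in 16 of 36 genes, and its mitosis score of 0.48 compares with -0.34 to -0.060 in the other wild-type grafts.

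Of the 6 G1 cyclins and kinases 3 were higher and 3 lower, with a median of 0.011. Ccne1, the cyclin that brings Cdk2 into S phase, had the largest difference of all 36 members and lay near the floor. Its wild-type signals were 0.0166, 0.0687 and 0.179 and its ABCC2-/- signals 0.115, 0.119 and 0.230 (lowest, median, highest). All 6 ABCC2-/- grafts were above 5 of the wild-type grafts, of which 3 were under the floor, and wild-type replicate 1 lay among the high ones. The log2 difference was 0.75 on floored values (exact two-sided permutation p = 0.0238, unadjusted, 1 of 6 such tests). Without the level filter its limma adjusted p was 0.665, and with the floor at the 40th percentile the difference was 0.056. Ccnd3, a D-type cyclin, was at 1.68, 1.73 and 1.87 in wild-type and 1.24, 1.45 and 2.03 in ABCC2-/- grafts. It lay below the wild-type mean in 5 of 6 ABCC2-/- grafts, with a difference of -0.21 (SE 0.11, limma adjusted p = 0.628). Among the first 3 grafts listed of each genotype it differed by -0.025 (limma adjusted p = 0.955) and among the last 3 by -0.40.

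Ccnd2, another D-type cyclin, and its kinase partner Cdk4 were higher on average by 0.19 and 0.13, each above the wild-type mean in 5 of 6 ABCC2-/- grafts. Cdk2, the kinase of cyclins E and A, differed by -0.15 (SE 0.16), and its second tested probe set by -0.26 (SE 0.18). Ccnd1 was read by 3 tested probe sets that disagreed. The chosen set gave -0.11 (SE 0.14), the others 0.55 (SE 0.25, limma adjusted p = 0.614) and 0.062 (SE 0.19). In the set with 0.55 the signals were 4.68 ± 0.980 (SD, n = 6) in wild-type and 7.31 ± 3.17 (SD, n = 6) in ABCC2-/- grafts, and the ranges of 2.99 to 5.52 and 3.77 to 11.0 overlapped. No direction can be given for Ccnd1.

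The 4 CDK inhibitors had a median of -0.017, with 2 higher and 2 lower. Cdkn1b, which restrains cyclin E with Cdk2 in resting cells, had wild-type signals of 6.94, 8.08 and 9.62 and ABCC2-/- signals of 6.48, 7.23 and 7.77 (lowest, median, highest). All 6 ABCC2-/- grafts were below the wild-type mean, and the difference of -0.19 (SE 0.092) had the lowest adjusted p of the members, 0.625 in limma. It was -0.42 among the first 3 grafts listed of each genotype and 0.039 among the last 3. Cdkn1a, the inhibitor that p53 induces, was at 0.647, 0.785 and 1.04 in wild-type and 0.668, 0.844 and 1.18 in ABCC2-/- grafts. Its difference of 0.11 had a 95% interval of -0.21 to 0.42. Cdkn2c, an inhibitor of Cdk4, differed by 0.023, with an interval of -0.26 to 0.31, and its second tested set by -0.091 (SE 0.20). Cdkn2a signals ranged from 0.01 to 0.114 in wild-type and from 0.01 to 0.0859 in ABCC2-/- grafts, with 9 of the 12 under the floor, so that no order can be read from them.

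Both atypical cyclins were lower on average in ABCC2-/- grafts. Ccng1, a target of p53, was at 6.26, 7.23 and 8.04 in wild-type and 5.74, 6.36 and 7.29 in ABCC2-/- grafts, a difference of -0.16 (SE 0.092, limma adjusted p = 0.635). Ccni, a cyclin whose level varies little over the cycle, differed by -0.15 (SE 0.10, limma adjusted p = 0.643). A second Ccni probe set differed by -0.64 (SE 0.14, limma adjusted p = 0.513), with signals of 2.24 ± 0.400 (SD, n = 6) in wild-type and 1.44 ± 0.277 (SD, n = 6) in ABCC2-/- grafts, overlapping between 1.63 and 1.83. Across the members 10 had more than 1 probe set. Of the 15 further sets 9 were tested, 4 of these 9 had the opposite sign to the chosen set, and 3 had an unadjusted limma p under 0.05 (Top2a, Ccnd1 and Ccni).

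In 4 further lists of genes of the same pathways no gene passed the test. Of 46 other replication genes 33 were tested, 17 higher and 16 lower, with a median of 0.0065. The lowest p values were those of Rfc5, a clamp loader subunit, at 0.38 (SE 0.12), and Orc5, of the origin recognition complex, at -0.36 (SE 0.14), both with a limma adjusted p of 0.606. Of 52 other mitosis genes 32 were tested, 22 higher and 10 lower, with a median of 0.11. Kif11, the motor that separates spindle poles, was at -0.42 (SE 0.11) and Cenpk, a kinetochore protein, at 0.62 (SE 0.20), again with a limma adjusted p of 0.606. Without wild-type replicate 1, 26 of these 32 were higher and 6 lower. At an unadjusted limma p under 0.05, 2.83% of all probe sets tested were then higher and 667 of 18625 lower. Of the 32 genes 8 were higher and 1 lower at that limma p. With all 12 grafts these counts were 3 higher and 1 lower, against 3.35% of probe sets tested that were higher and 4.63% that were lower. The graft was chosen by its values in the mitosis genes. Of 25 genes of the RB and E2F pathway 19 were tested, 4 higher and 15 lower, with a median of -0.11. Rbl2, a relative of RB active in resting cells, was at -0.17 (SE 0.075, limma adjusted p = 0.614). Its signals, 2.83 to 3.05 in wild-type and 2.39 to 2.79 in ABCC2-/- grafts, did not overlap, which held for 0.435% of probe sets tested. Cdc25a, a phosphatase that activates CDKs, was at -0.42 (SE 0.20, limma adjusted p = 0.625). Of 23 genes of p53 and arrest 17 were tested, 11 higher and 6 lower, with a median of 0.10. Sesn2, a stress-induced regulator, was at -0.25 (SE 0.091, limma adjusted p = 0.606) and Plk3, a stress-activated kinase, at 0.68 (SE 0.31, limma adjusted p = 0.614).

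Array measures set the last 3 ABCC2-/- grafts listed apart from the other 9. The Gapdh 3′ to 5′ probe ratio, a measure of RNA integrity, was 1.28 to 1.36 in the last 3 ABCC2-/- grafts listed and 1.64 to 1.93 in the other 9, and the beta-actin ratio was 4.48 to 6.39 against 7.06 to 9.79. Among the last 3 grafts listed of each genotype these ratios split by genotype, so the part of each cannot be told apart. No label names a batch. Within the first 3 grafts of each genotype the mitosis median was 0.23 and within the last 3 it was 0.29, with the same sign in both for 8 of 14 genes. For replication these were 0.037 and 0.11, with the same sign for 7 of 10. The first 3 alone gave 4 calls over all probe sets (0.0215%) and 0 among members. Among the last 3 alone, 1190 of 18625 probe sets passed the test (6.39%), and of 30 members 1 did, Ccnd3 with -0.40 (limma adjusted p = 0.0477). With the place in the listing as a block 112 probe sets passed (0.601%) and 0 members. The part of RNA integrity in these differences was not tested beyond a fit with the Gapdh ratio as a covariate, where 0 members passed. In that fit the medians were 0.30 for mitosis, 0.11 for replication, 0.016 for G1 genes and -0.013 for CDK inhibitors. The atypical cyclin median was -0.026 there, against -0.15 without the covariate.

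Summed marker signals of the cell types of the cortex overlapped between the genotypes in every list, and the lowest and highest graft are given here. Proximal tubule markers (10 of 10 measured, led by Slc34a1 and Gatm) summed to 329 to 434 in wild-type and 327 to 371 in ABCC2-/- grafts. Loop, distal and collecting duct markers (10 of 10, Umod and Calb1) summed to 145 to 162 and 146 to 154. Glomerular and endothelial markers (8 of 10, Emcn and Podxl) summed to 29.7 to 36.1 and 28.8 to 33.9. Lymphocyte markers (14 of 15, Lck and Cd3g) summed to 2.97 to 3.34 and 2.59 to 3.90, with Cd8b under the floor on 7 and Cd79b on 8 of 12 arrays. Myeloid markers (15 of 15, Cd74 and Lyz2) summed to 69.4 to 95.6 and 67.6 to 112, with Cd163 and Itgam each under the floor on 11 arrays. Fibroblast and smooth muscle markers (10 of 10, Pdgfra and Dcn) summed to 19.0 to 27.3 and 21.6 to 30.6. Injury and repair markers (11 of 12, Krt8 and Spp1) summed to 24.6 to 33.1 and 25.5 to 33.2, and erythrocyte markers (4 of 7, Hbb and Hba-a3) to 20.9 to 54.6 and 11.5 to 47.2. Such sums follow the brightest markers, and Slc4a1 stands in both the distal and the erythrocyte list. By single markers tested, 2 proximal tubule markers were higher in ABCC2-/- grafts and 8 lower (median log2 difference -0.065), 3 and 7 of the loop, distal and collecting duct (-0.11), and 1 and 7 glomerular and endothelial (-0.091). Lymphocyte markers were higher in 2 and lower in 6 (-0.077), and erythrocyte markers higher in 0 and lower in 4 (-0.30). Higher more often were myeloid markers, 9 against 3 (0.12), fibroblast and smooth muscle markers, 8 against 1 (0.072), and injury and repair markers, 7 against 3 (0.11). Over all measured markers, the injury and repair median was -0.098 in the first 3 grafts listed of each genotype and 0.29 in the last 3. For fibroblast and smooth muscle markers it was -0.020 and 0.17, and for myeloid markers 0.050 and 0.15. The proximal tubule (0.010 and -0.094) and lymphocyte medians (-0.068 and 0.037) also changed sign. None of these markers passed the limma test. The part of these cells in the differences of the cell cycle genes was not tested.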

How the data were processed

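Renal cortex RNA of 12 grafts was hybridised to Affymetrix 3′ arrays, 1 array per graft, and the title of each sample gave its genotype. What the authors deposited are linear probe set intensities, 1 column per array, in which 3.56% of values are at the minimum of 0.01. MAS5 and GCOS are named in the submitters' processing notes. Genome build and scaling target are not given in the sources used here. The number of arrays limits the precision.

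From 31099 probe sets 57 controls were left out. Values under the pooled 20th percentile (0.0694) were raised to it, which understates differences of dim genes, and log2 was taken. The 18625 probe sets at or above the 40th percentile of mean log2 signal were tested with limma 3.58.1 in R 4.3.3 (lmFit, eBayes with trend) and adjusted by Benjamini-Hochberg over all of them, with a threshold of 0.05. Members under that filter had an exact two-sided permutation test. The code was tested on simulated data. Gene names came from the platform annotation, where 20826 probe sets have 1 symbol and 436 several. The members and lists were chosen with earlier results of these data known. All members are named, with the lowest 2 p values of each other list and the 2 brightest markers of each marker list. Alternatives covered the floor, filter, scaling, variance model, weights, listing order, Gapdh ratio, probe set choice and each array left out.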

Additional observations from a re-analysis of the deposited data

Results flagged for a closer look

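Within a genotype, 5 of 72 gene and genotype groups of 6 grafts (6.94%) had a graft far from the other 5 by Dixon's 95% criterion, where chance gives about 1 in 20. Rrm1 was at 2.09 in wild-type replicate 1, against 1.52 to 1.57 in the rest. Mki67 was at 0.591 in the same graft, against 0.233 to 0.355, and Cdk1 at 0.681, against 0.247 to 0.390. Bub1b, a gene under the floor on 10 of 12 arrays, was at 0.125 in wild-type replicate 6 (0.0192 to 0.0389 in the rest) and at 0.0969 in ABCC2-/- replicate 3 (0.0140 to 0.0388 in the rest).

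The group scores of wild-type replicate 1 also lay far from the other wild-type grafts. Its replication score was 0.29 (rest -0.16 to -0.048), its mitosis score 0.48 (rest -0.34 to -0.060) and its score over all members 0.31 (rest -0.19 to -0.055). These scores share genes, so they are not separate results.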

How the results depend on the processing

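The counts and medians below were recomputed under 13 alternatives, the members also with the mean over the probe sets of a gene, and with each of 12 arrays left out. No paired analysis was run, because no label pairs a wild-type graft with an ABCC2-/- graft. Against 4 probe sets called, the filter at the 60th percentile gave 2 calls, the listing place as a block 112 and the last 3 grafts listed of each genotype 1190, and leaving out single arrays gave 3 to 5. Members called were 0, except 1 (Ccnd3) among the last 3 listed, and 0 with any array left out. With arrays left out the median differences ran from 0.053 to 0.13 for replication, 0.21 to 0.40 for mitosis, -0.011 to 0.054 for G1 cyclins and kinases, -0.060 to 0.011 for CDK inhibitors and -0.19 to -0.12 for atypical cyclins. The mitosis and replication medians were positive in all 26 recomputations, and the medians of the G1 genes and CDK inhibitors took both signs. Some of the 26 cannot move a median: those that change only the filter or the variance model, and the listing place as a block. The G1 median was 0.15 with the mean over probe sets, since the Ccnd1 sets disagree. The atypical cyclin median was -0.28 with the mean over probe sets and -0.026 with the Gapdh ratio as a covariate. The mitosis median was 0.18 with the floor at the 40th percentile, 0.20 with quantile normalization and 0.31 with arrays centred on the median. Leaving out wild-type replicate 1 and ABCC2-/- replicate 14 together, chosen after seeing the data, gave 0.41 for mitosis and 0.17 for replication. The members under the filter have low signals, and the floor setting changes the sign of some of their differences.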
